A study of Drosophila melanogaster with 6 samples.

Results

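The attacin, diptericin, drosocin and cecropin genes of *Drosophila melanogaster* encode small antibacterial peptides, most of them secreted. The 10 genes AttA, AttB, AttC, AttD, DptA, DptB, Dro, CecA1, CecA2 and CecC were taken by name, matched to the gene IDs of the count files, and all 10 were found among 16641 genes. RNA was sequenced from heads of 3-day-old males grown at 18 C. One group was 3 libraries of Adar5G1 flies, whose strain label reads y, sc, Adar5G1, and the other was 3 libraries of w1118 flies, which served as the wild type. Each genotype was 1 stock, so the Adar mutation cannot be told apart from the other differences between the stocks. Nothing in the labels tells whether libraries of 1 genotype are separate fly collections, and the p-values may therefore rest on technical spread among the libraries alone.

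Attacins are glycine-rich peptides active against Gram-negative bacteria, and diptericins are related glycine-rich peptides. Drosocin is a proline-rich peptide that acts on bacterial protein synthesis, and cecropins are short helical peptides that disrupt bacterial membranes. In flies these genes are known as targets of the immune deficiency (IMD) pathway, in which peptidoglycan recognition proteins detect bacterial cell wall and the NF-kappaB factor Relish is cleaved and enters the nucleus. The fat body, which is also present in the head, is a main source of the secreted peptides after infection, and unchallenged flies express them at low levels.

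Library totals over genes ran from 6872569 to 21639081 fragment counts. Adar (FBgn0026086) had 5, 1 and 19 counts in Adar5G1 replicates 1, 2 and 3 and 2860, 6142 and 2602 in the w1118 replicates. The white gene w, mutated in w1118, had 226, 93 and 411 counts in Adar5G1 and 1, 2 and 0 in w1118. The 8 neuronal, glial and photoreceptor markers used to check the head label, ninaE and elav among them, were all detected in every library, and their summed level was 17940 to 20367 CPM in Adar5G1 and 22018 to 23540 CPM in w1118. Of these 8 markers 1 passed the threshold and fell, the photoreceptor myosin gene ninaC (log2 fold change -0.52, SE 0.11, edgeR adjusted p = 0.0185), a call lost without Adar5G1 replicate 1, without w1118 replicate 1 or 2 and with total counts only. The most abundant, the rhodopsin gene ninaE, had 8446 ± 733 CPM in Adar5G1 and 9125 ± 627 in w1118. CPM are counts relative to library size, with the library size scaled by trimmed mean of M-values (TMM) factors. With the edgeR quasi-likelihood test at an adjusted p under 0.05, 900 of 10201 tested genes were higher in Adar5G1, a background of 8.82%, and 523 were lower, or 5.13%. These numbers were 812 and 764 with upper-quartile scaling, 582 and 209 with total counts only, and 545 and 331 without w1118 replicate 1.

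The antibacterial peptide genes were expressed in the heads of the mutant and nearly silent in those of the wild type. The summed level of the 10 genes was 1207, 479 and 405 CPM in Adar5G1 replicates 1, 2 and 3, and 2.09, 1.996 and 2.38 CPM in the w1118 replicates. The means, 697 ± 443 and 2.15 ± 0.198 CPM (SD, n = 3 each), differed 324-fold, and the lowest mutant library was 171-fold above the highest wild-type library. Without Adar5G1 replicate 1 the means differed 205-fold. Of the 10 genes 9 had counts in every Adar5G1 library, and 4 had counts in every w1118 library. For the same 9 genes, all but AttD, every Adar5G1 library lay above every w1118 library, which held for 17.1% of the tested genes. The count filter kept 8 of the 10, leaving out AttD and CecA1, and 6 of these 8 rose with edgeR: Dro, DptA, DptB, AttA, AttB and AttC. All 8 reached the filter through the mutant libraries, so those 8 had to be high in Adar5G1. The count of rises and the lack of overlap are therefore descriptions rather than support. CecA2 and CecC did not pass the threshold. None of the 8 fell, also at an unadjusted p under 0.05 and with DESeq2 or limma-voom. With so few w1118 counts a fall could not have been seen, so this too is a description rather than support.

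**Figure D1:**
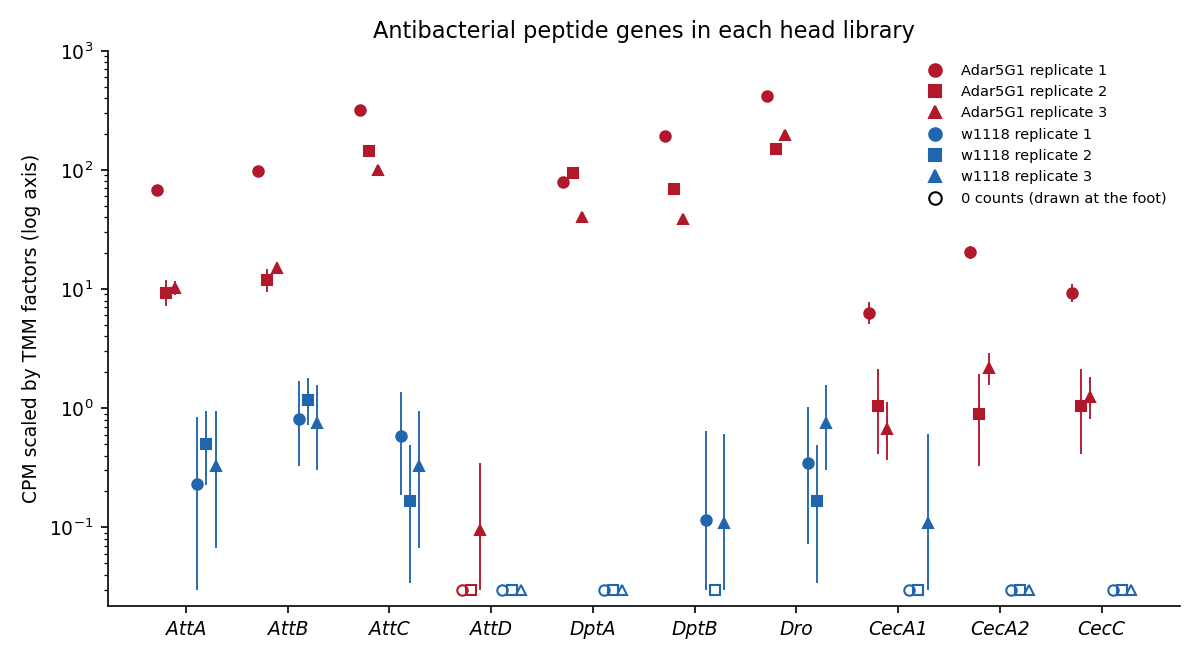
CPM of the 10 antibacterial peptide genes in each library on a log axis (red, Adar5G1; blue, w1118; symbols mark the replicate; bars are exact 95% Poisson intervals of counting error, clipped at the foot of the axis). Open symbols at the foot stand for 0 counts. For every gene but AttD the 3 Adar5G1 libraries lie above the 3 w1118 libraries, and replicate 1 is the highest mutant library for all of these but DptA.

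Drosocin had the highest level of the family in the mutant. Dro (FBgn0010388, 2R:10633466-10634219 of dm3, plus strand, 1 exon) had 5650, 1005 and 4136 counts in Adar5G1 replicates 1, 2 and 3, or 417, 148 and 198 CPM. In w1118 it had 3, 3 and 7 counts, or 0.348, 0.166 and 0.756 CPM. The groups did not overlap, and the lowest mutant library was 196-fold above the highest wild-type one. On the log2 scale Dro rose by 9.41 (SE 0.62, edgeR adjusted p = 5.9e-05). The fold rests partly on the few wild-type counts: it was 8.80 without w1118 replicate 2 and 10.08 without w1118 replicate 3, with the call kept in both.

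The neighbouring diptericin genes were both high in every mutant library and nearly silent in the wild type, and their highest mutant libraries were not the same. DptA (FBgn0004240, 2R:14753270-14753765, plus strand) had 1063, 642 and 833 counts in the Adar5G1 libraries, or 78.5, 94.8 and 39.9 CPM, and 0 counts in each w1118 library. Against 3 counts over the w1118 group it was at least 737-fold higher (edgeR adjusted p = 3.91e-04), a bound that ran from 367-fold without w1118 replicate 2 to 1005-fold without Adar5G1 replicate 3. DptB (FBgn0034407, 2R:14754896-14755400, plus strand) had 2608, 465 and 815 counts, or 193, 68.6 and 39.0 CPM, against 1, 0 and 1 counts in w1118. With library sizes taken into account, the summed counts had a ratio of 1694 (exact 95% counting interval 469 to 13996, edgeR adjusted p = 6.79e-04). That ratio was 831 without Adar5G1 replicate 1, 2716 without Adar5G1 replicate 3, 2576 without w1118 replicate 1, 843 without w1118 replicate 2 and 2515 without w1118 replicate 3. The fitted log2 fold change of DptB, 10.58, was 9.66 without Adar5G1 replicate 1 and 9.67 without w1118 replicate 2. An exon of DptB overlaps CG43109 on the other strand, which had at most 9 counts in a library. DptA was highest in replicate 2 and DptB in replicate 1. The ratio of DptA to DptB counts was 0.408 in replicate 1 (95% counting interval 0.379 to 0.438), 1.38 in replicate 2 (1.22 to 1.56) and 1.02 in replicate 3 (0.927 to 1.13). These intervals hold counting error and not the spread between libraries.

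Among the attacins, AttC was the most abundant in the mutant and AttA and AttB were the members with the smallest folds past the threshold. AttC (FBgn0041579, 2R:9281210-9282172, plus strand) had 4296, 970 and 2067 counts in Adar5G1, or 317, 143 and 99.0 CPM, and 5, 3 and 3 counts in w1118. It was 170-fold higher in the lowest mutant library than in the highest wild-type library, and it rose by 9.19 on the log2 scale (SE 0.69, edgeR adjusted p = 1.24e-04), or by 8.56 without Adar5G1 replicate 1. An exon of AttC overlaps CG4744 on the other strand, which had 1 to 4 counts in every library, and counting was by strand. AttA (FBgn0012042, 2R:10634867-10635720, plus strand) had 917, 63 and 212 counts in Adar5G1, or 67.8, 9.30 and 10.2 CPM, and 2, 9 and 3 in w1118. AttB (FBgn0041581, 2R:10636728-10637670, plus strand) had 1319, 80 and 315 counts, or 97.5, 11.8 and 15.1 CPM, and 7, 21 and 7 in w1118. For both genes replicate 1 stood far above the other mutant libraries, and the groups did not overlap.

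The log2 fold changes of AttA and AttB were 6.22 (SE 1.14, edgeR adjusted p = 0.00857) and 5.43 (SE 1.03, adjusted p = 0.00963). Without Adar5G1 replicate 1 they were 4.63 and 3.82, both still past the threshold. With limma-voom the calls of AttA and AttB were lost (adjusted p = 0.177 and 0.155), as they were with edgeR's robust dispersion (adjusted p = 0.081 and 0.0892). Over all alternatives the adjusted p ran from 3.83e-51 to 0.177 for AttA and from 4.59e-49 to 0.155 for AttB, the lowest with total counts only. The 2 genes are close copies and their reads can be shared or lost in mapping, so their separate counts are uncertain. Summed into 1 row they rose by 5.72 on the log2 scale (edgeR adjusted p = 0.00696). In w1118 AttB was the member with the highest level, 0.911 ± 0.221 CPM (SD, n = 3), and it took 31.8% to 58.3% of the summed level of the family there, a share of at most 21 counts in a library.

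The attacin gene AttD (FBgn0038530, 3R:13450990-13451808, plus strand) was the exception. Unlike the other attacins it is not predicted to be secreted. It had 2 counts in Adar5G1 replicate 3 and 0 counts in each of the other 5 libraries. Neither group rose above 3 counts, so no fold is given, and a difference between the groups was not detectable at this depth. Without a count filter its edgeR adjusted p was 0.522.

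The cecropins were the least abundant of the expressed members and varied the most. CecA2 (FBgn0000277, 3R:26037878-26038290, plus strand) had 275, 6 and 45 counts in Adar5G1, or 20.3, 0.886 and 2.15 CPM. CecC (FBgn0000279, 3R:26042206-26042660, plus strand) had 126, 7 and 26 counts, or 9.31, 1.03 and 1.25 CPM, and CecA1 (FBgn0000276, 3R:26036596-26036995, plus strand) 86, 7 and 14 counts, or 6.35, 1.03 and 0.67 CPM. In w1118 CecA2 and CecC had 0 counts in each library and CecA1 had 1 count, in replicate 3. Replicate 1 held most of the cecropin counts, and all 3 genes were detected in all 3 mutant libraries.

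CecA2 was at least 94.7-fold and CecC at least 46.2-fold higher in Adar5G1 when summed counts were set against 3 counts over w1118. Without Adar5G1 replicate 1 these bounds were 22.1-fold and 14.3-fold, and without Adar5G1 replicate 3 they were 166-fold and 78.4-fold. Without w1118 replicate 2 they were 47.1-fold and 23.0-fold. Neither gene passed the threshold (edgeR adjusted p = 0.0666 for CecA2, with an SE of 2.70 on the log2 scale, and 0.0517 for CecC, with an SE of 2.23). Both passed when any 1 Adar5G1 library was left out: without replicate 1 the adjusted p was 0.0173 for CecA2 and 0.0141 for CecC, and without replicate 2 it was 0.0485 and 0.0493. Neither passed when any 1 w1118 library was left out, with adjusted p-values of 0.108 to 0.148 for CecA2 and 0.0818 to 0.117 for CecC. Over all alternatives it ran from 6.75e-34 to 0.352 for CecA2 and from 5.69e-21 to 0.259 for CecC, with the lowest values under total counts only and the highest under robust dispersion. CecA1 did not pass the count filter, and its ratio of summed counts was 93.3 (95% counting interval 16.4 to 3718). That ratio was 27.3 without Adar5G1 replicate 1 (4.38 to 1127), 164 without Adar5G1 replicate 3 and 46.4 without w1118 replicate 2. Without w1118 replicate 3, which held the 1 count, CecA1 was at least 23.1-fold higher. With no filter CecA1, CecA2 and CecC passed (edgeR adjusted p = 0.00909, 0.0145 and 0.00958), as they did with DESeq2. CecA1 and CecA2 are close copies, and summed into 1 row they passed with filtering (edgeR adjusted p = 0.0231).

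Levels of different genes were compared per kilobase of exon. In Adar5G1 Dro had 338 ± 190 CPM per kb, DptB 223 ± 182, AttC 207 ± 128 and DptA 143 ± 56.8 CPM per kb (SD, n = 3). Then came AttB with 47.2 ± 55.2, AttA with 36.8 ± 42.4, CecA2 with 21.9 ± 30.6, CecC with 10.01 ± 12.2, CecA1 with 7.92 ± 9.39 and AttD with 0.043 ± 0.0745 CPM per kb. Each step of this order was smaller than the larger of the 2 SDs beside it, except the step from DptA to AttB, but the genes share their libraries and therefore the excess in replicate 1. Within libraries the order of Dro over DptB, DptA over AttB, AttB over AttA, AttA over CecA2 and CecA1 over AttD held in 3 of 3. AttC over DptA, CecA2 over CecC and CecC over CecA1 held in 2 of 3, and DptB over AttC in 1 of 3.

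**Figure D2:**
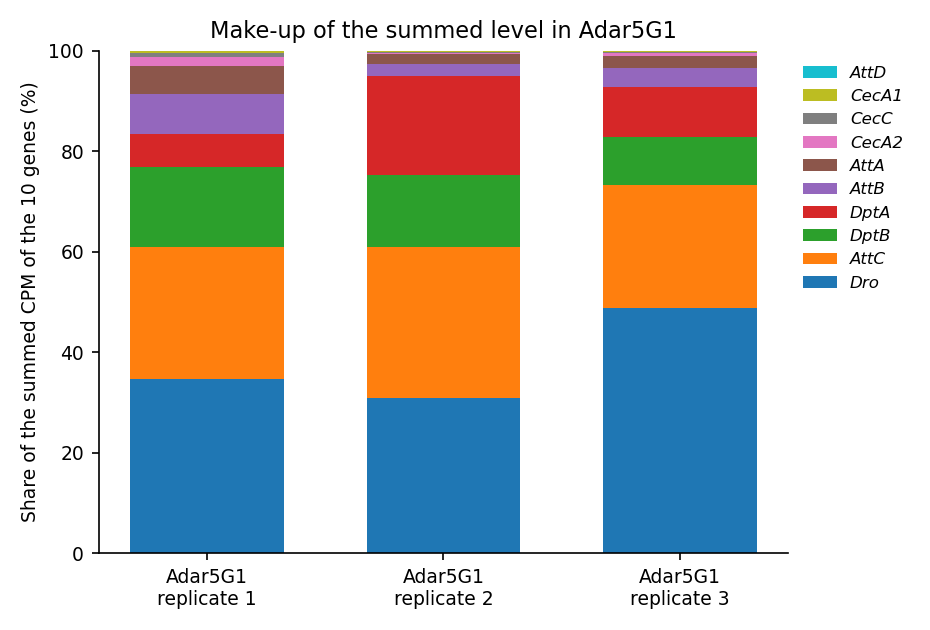
Share of each gene in the summed CPM of the 10 genes in the 3 Adar5G1 libraries (stacked bars, percent). Dro, AttC, DptB and DptA make up most of the sum in each library, while the share of DptA is 19.8% in replicate 2 against 6.51% in replicate 1.

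The make-up of the summed level differed between the mutant libraries. Dro took 34.6%, 31.0% and 48.9% of it in replicates 1, 2 and 3, and AttC 26.3%, 29.9% and 24.4%. The share of DptA was 6.51%, 19.8% and 9.84%, and that of AttB 8.07%, 2.47% and 3.72%. AttA together with the cecropins took its largest share in replicate 1, where AttA had 5.61% and CecA2 1.68%, against 1.94% and 0.185% in replicate 2.

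The 3 Adar5G1 libraries differed in these genes far more than in most of the transcriptome. Replicate 1 was the highest mutant library for 7 of the 8 members that passed the filter, and for CecA1 as well, where 31.8% of tested genes had their highest mutant value in that library. The highest mutant library was at least 2-fold above the lowest for all 8, which was the case for 6.58% of tested genes. The median coefficient of variation among the mutant libraries was 10.8% over all tested genes. It was 39.7% for DptA, 56.2% for Dro, 61.9% for AttC, 81.4% for DptB, 115.3% for AttA, 117% for AttB, 122% for CecC and 140% for CecA2. The summed level was 2.52-fold higher in replicate 1 than in replicate 2 and 2.98-fold higher than in replicate 3, and the gap differed from gene to gene.

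The gap was widest for the cecropins and for AttA and AttB. CecA2 was 22.9-fold higher in replicate 1 than in replicate 2 (exact 95% counting interval 10.4 to 63.0) and CecC 9.01-fold (4.25 to 22.9). AttB was 8.25-fold higher (6.58 to 10.5) and AttA 7.28-fold (5.64 to 9.56). CecA1 was 6.15-fold higher (2.86 to 15.8), below both of these attacins. The gap was narrower for Dro, 2.81-fold (2.63 to 3.01), DptB, 2.81-fold (2.54 to 3.10), and AttC, 2.22-fold (2.07 to 2.38). DptA ran the other way, with a ratio of 0.829 (0.751 to 0.915), which was 0.989 with total counts in place of TMM factors. Replicates 2 and 3 also differed from each other: DptA, DptB and AttC were lower in replicate 3 than in replicate 2, with ratios of 0.421 (0.379 to 0.467), 0.569 (0.507 to 0.638) and 0.691 (0.640 to 0.747), while Dro was higher, with 1.34 (1.25 to 1.43). These intervals cover counting error only.

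**Figure D3:**
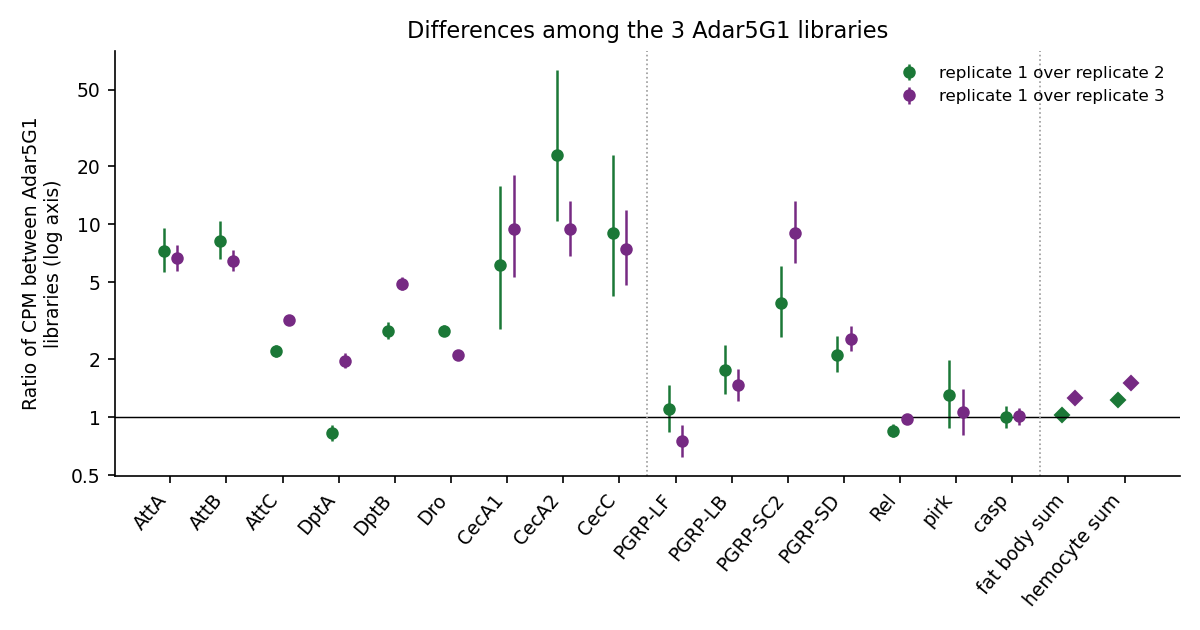
Ratio of CPM in Adar5G1 replicate 1 to replicate 2 (green) and to replicate 3 (purple) on a log axis, for 9 antibacterial peptide genes, for the IMD pathway genes past the threshold, and for the summed level of the fat body and hemocyte lists (diamonds). Bars are exact 95% counting intervals. The ratios reach 22.9 for CecA2, stay between 0.854 and 1.02 for Rel and the replicate 2 ratio of the fat body sum, and lie below 1 for DptA against replicate 2.

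Of the 10 genes 8 lie in 3 clusters, and all 8 are annotated on the plus strand. Dro, AttA and AttB lie within 4205 bp on 2R, DptA and DptB within 2131 bp on 2R, and CecA1, CecA2 and CecC within 6065 bp on 3R, in dm3 coordinates of the deposited files. Dro ends 647 bp before AttA begins, and the ratio of Dro to AttA counts was 6.16 in replicate 1 (95% counting interval 5.75 to 6.61), 15.95 in replicate 2 (12.4 to 20.9) and 19.5 in replicate 3 (17.0 to 22.5). The neighbours AttA and AttB had ratios of 0.695 (0.638 to 0.757), 0.788 (0.557 to 1.11) and 0.673 (0.563 to 0.804). CecA1 and CecA2 had ratios of 0.313 (0.243 to 0.400) in replicate 1 and 0.311 (0.158 to 0.577) in replicate 3, with too few counts in replicate 2 to place it (0.336 to 4.202).

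**Figure D4:**
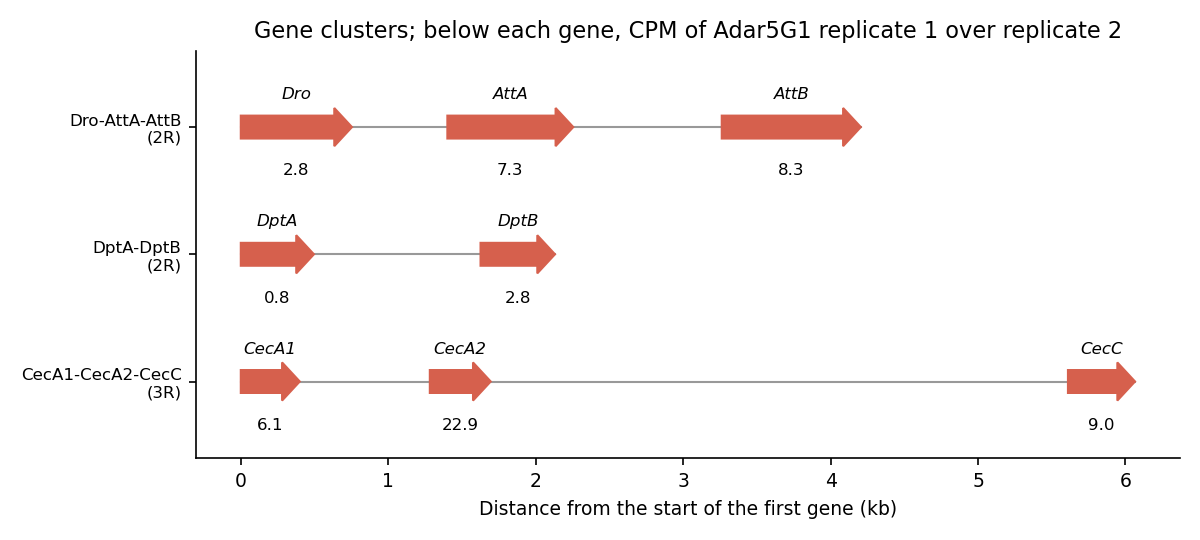
Maps of the 3 clusters, drawn to scale by distance from the start of the first gene in kilobases, with arrows along the direction of transcription. The number below each gene is its CPM in Adar5G1 replicate 1 divided by that in replicate 2: 2.8 for Dro beside 7.3 for AttA, and 0.8 for DptA beside 2.8 for DptB.

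The genes that flank the clusters did not share the size of these rises. On the sides of the Dro cluster, jef had 313 ± 1.43 CPM in Adar5G1 and 333 ± 13.7 in w1118 (log2 fold change -0.09, SE 0.06, edgeR adjusted p = 0.432), and Rpn6, a proteasome subunit gene whose annotated end adjoins that of AttB, had 50.3 ± 6.16 and 44.2 ± 6.78 CPM (0.18, SE 0.13, adjusted p = 0.434). CG43071, which lies 546 bp to the left of DptA on the other strand, rose from 2 counts in each w1118 library to 33, 8 and 28 in the mutant (log2 fold change 3.25, SE 0.52, edgeR adjusted p = 0.0045). On the far side of DptB, sano rose by 0.30 on the log2 scale (SE 0.07, adjusted p = 0.0212). To the left of CecA1 the male-tract peptide gene Anp had 0 counts in every library. CecB, a cecropin gene on the minus strand between CecA2 and CecC, had 16, 0 and 2 counts in Adar5G1 and 0 in w1118, with replicate 1 again the highest. CG43448, 20155 bp beyond CecC, had 3.14 ± 0.593 and 0.796 ± 0.250 CPM (SE of the log2 fold change 0.30, edgeR adjusted p = 0.00359).

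Among tested genes outside the family, 5 had a log2 CPM profile over the 6 libraries nearest to the mean profile of the 8 members, by root-mean-square difference after centring. These were Mtkl (0.48), FBgn0010381 (0.57), BomBc1 (0.65), w (0.81) and CG14204 (0.85), of which Mtkl, w and CG14204 had 0 to 2 counts per library in w1118. The members themselves lay 0.77 (AttA) to 1.33 (CecC) from their mean. Mtkl had 32.0, 18.7 and 13.6 CPM in the Adar5G1 libraries, FBgn0010381 583, 210 and 162 CPM and BomBc1 202, 128 and 76.2 CPM. Replicate 1 was the highest for each of them, beside 31.8% of tested genes. These genes were picked for their likeness to the members over the same libraries, so this order is a description rather than support. For w the mutant libraries had 16.7, 13.7 and 19.7 CPM and for CG14204 24.9, 27.3 and 26.05 CPM, so these shared the difference between the genotypes and not the order of the mutant libraries.

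Of the IMD pathway genes upstream of these peptides, most did not pass the threshold. Of 29 genes listed 27 were tested, and 7 rose and 0 fell with edgeR, beside 8.82% and 5.13% of all tested genes. At an unadjusted p under 0.05, 3 were lower, and DESeq2 and limma-voom called 0 lower. The middle log2 fold change of these 27 was 0.05, beside -0.00028 over all tested genes. The 7 rises held the transcription factor Relish and recognition and feedback genes. Rel had 132, 155 and 135 CPM in Adar5G1 and 70.5, 71.7 and 83.9 in w1118 (log2 fold change 0.90, SE 0.10, adjusted p = 7.17e-04), with no overlap, and its order among the mutant libraries was not that of the peptide genes. Pirk, an inhibitor of the pathway at the receptor, rose by 1.26 (SE 0.19), PGRP-LF, a receptor-like inhibitor, by 2.26 (SE 0.20), and casp, which encodes the inhibitor Caspar, by 0.44 (SE 0.07).

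Other genes of the pathway that rose included the amidase gene PGRP-LB, whose product degrades peptidoglycan, by 0.93 (SE 0.22, adjusted p = 0.0228), and the secreted recognition gene PGRP-SD by 1.497 (SE 0.38, adjusted p = 0.0347). PGRP-SC2, another amidase gene, had 15.6, 3.99 and 1.72 CPM in the mutant libraries. With 2 w1118 counts in all, its count ratio was 119 (95% counting interval 32.7 to 991, edgeR adjusted p = 0.0139). The ratio of PGRP-SC2 was 40.9 without Adar5G1 replicate 1, 210.4 without Adar5G1 replicate 3 and 182 without w1118 replicate 1. Replicate 1 was the highest mutant library for 4 of the 7 genes, PGRP-SC2, PGRP-LB, PGRP-SD and pirk, beside 31.8% of tested genes, and for pirk the ratio to replicate 2, 1.31 (0.881 to 1.98), lay within counting error. PGRP-LF was highest in replicate 3, and Rel and casp in replicate 2. The receptor gene PGRP-LC had 45.7 ± 4.59 CPM in Adar5G1 and 42.4 ± 2.24 in w1118 (log2 fold change 0.10, SE 0.09, adjusted p = 0.564). The adaptor genes imd and Fadd, the caspase gene Dredd, the kinase genes Tak1 and IKKbeta and key, which encodes the regulatory subunit of the IKK complex, did not pass the threshold, with log2 fold changes from -0.23 to 0.28. Rises numbered 4 when w1118 replicate 1 or w1118 replicate 2 was left out, and 1 gene fell without Adar5G1 replicate 3. Omitting either of those wild-type libraries ended the calls of PGRP-LB, PGRP-SD and PGRP-SC2, and omitting Adar5G1 replicate 1 ended those of PGRP-LB and PGRP-SD. The calls of PGRP-SC2 and PGRP-SD were also lost with limma-voom (adjusted p = 0.0795 and 0.0605) and with edgeR's robust dispersion (0.074 and 0.102), and that of casp with total counts only (0.651).

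**Figure D5:**
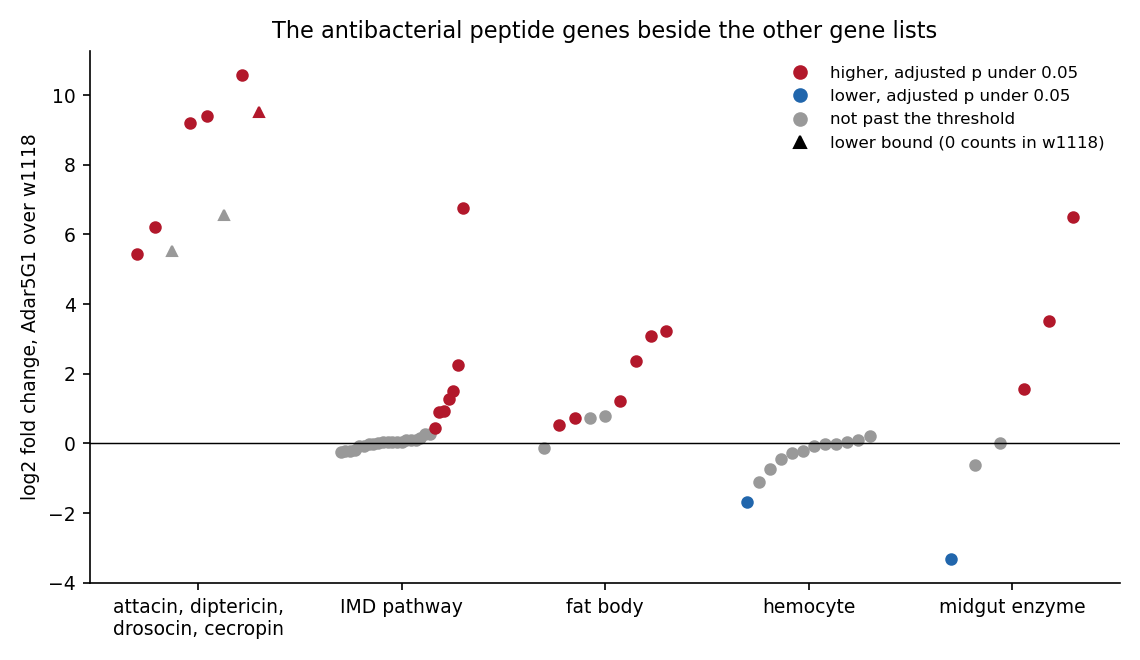
Log2 fold change of Adar5G1 over w1118 for each tested gene of the antibacterial peptide family and of 4 other lists (red, higher; blue, lower; gray, not past an adjusted p of 0.05). Triangles are lower bounds for peptide genes with 0 counts in w1118, and DptB, PGRP-SC2 and Amy-p, with 2 counts over w1118, are drawn at their fitted values. The points drawn for the peptide genes, with DptA, CecA2 and CecC at lower bounds, lie between 5.43 and 10.58. They lie above the points of the IMD pathway genes except PGRP-SC2.

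Markers of the fat body were also higher in the mutant heads. Of 10 matched fat body genes 9 were tested, and 6 rose and 0 fell, with 0 lower also at an unadjusted p under 0.05, with DESeq2 and with limma-voom. The shares over all tested genes were 8.82% higher and 5.13% lower. For the 9 fat body genes the median difference was 0.79 on the log2 scale. Their summed level was 5004 to 6300 CPM in Adar5G1 and 2667 to 4215 in w1118, a 1.77-fold difference of means beside 324-fold for the peptide genes, or 1.70-fold beside 205-fold without Adar5G1 replicate 1. Lsd-1, which encodes the lipid droplet protein perilipin 1, had 193 ± 83.7 against 22.8 ± 6.52 CPM (log2 fold change 3.08, SE 0.33, edgeR adjusted p = 0.000732), and AkhR, the receptor for adipokinetic hormone, 46.6 ± 7.99 against 9.04 ± 2.02 CPM (2.37, SE 0.19). Apoltp, which encodes a lipid transfer particle protein, rose by 1.22 (SE 0.18) and the lipophorin gene apolpp, the most abundant of the list, by 0.74 (SE 0.18). Among the mutant libraries the fat body sum was 1.02-fold higher in replicate 1 than in replicate 2 and 1.26-fold higher than in replicate 3, the order of the summed peptide level with smaller steps. That sum was mostly apolpp, which had 5170, 4907 and 4201 CPM in Adar5G1 replicates 1, 2 and 3. Lsd-1, with 180, 282 and 116 CPM, AkhR and Apoltp were highest in replicate 2. Rises in this list numbered 3 without w1118 replicate 2, and the call of apolpp was lost without replicate 1 or 2 of either genotype and with total counts only (adjusted p = 0.265). In bulk heads more cells of a type and more RNA per cell cannot be told apart, and the part of fat body RNA in the peptide result was not tested.

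Hemocyte markers were not higher in the mutant as a list. Of 13 matched genes 12 were tested, 0 rose and 1 fell, NimC2 (log2 fold change -1.69, SE 0.43, edgeR adjusted p = 0.0336), a call lost when Adar5G1 replicate 1, 2 or 3 or w1118 replicate 1 or 3 was left out, while 3 fell without w1118 replicate 2. Of all tested genes 5.13% were lower, and the 12 hemocyte genes had a median difference of -0.15 on the log2 scale. At an unadjusted p under 0.05, 0 were higher, as with DESeq2 and limma-voom. The summed hemocyte level was 943, 764 and 625 CPM in Adar5G1 replicates 1, 2 and 3 and 672 to 1002 in w1118. It had the order of the summed peptide level among the mutant libraries, with replicate 1 1.23-fold above replicate 2 and 1.51-fold above replicate 3, and the part of hemocyte RNA in that order was not tested. Col4a1, the most abundant, had 265 ± 64.3 and 268 ± 52.6 CPM. Of 25 midgut enzyme genes 16 had 0 counts in every library, among them all 6 listed trypsin genes, while 3 of 6 tested genes rose and 1 fell, beside the same 8.82% and 5.13%. The summed level of the midgut list was 220 to 285 CPM in Adar5G1 and 81.9 to 120.0 in w1118, a 2.74-fold difference of means. Most of that sum was the mannosidase gene LManII, with 233 ± 40.9 CPM in Adar5G1 and 79.5 ± 18.4 in w1118. The 6 tested midgut genes had a median difference of 0.79 on the log2 scale, beside 0.79 for the fat body list. The amylase genes Amy-d and Amy-p are close copies whose separate counts are uncertain. Amy-d rose by 3.51 on the log2 scale, Amy-p had a count ratio of 111 (95% counting interval 30.3 to 919), and the maltase gene Mal-B1 fell by 3.32. The ratio of Amy-p was 55.1 without w1118 replicate 2, and without w1118 replicate 3, which held both wild-type counts, Amy-p was at least 54.8-fold higher. The part of midgut RNA in the peptide result was not tested.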

How the data were processed

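The deposited values of the 6 libraries are raw counts of fragments for each gene. These were made with featureCounts 1.4.5-p1 per the file headers, in its reverse-strand mode over exons of FlyBase annotation release 5.53, giving a fragment that overlapped several genes to each of them and not setting the option for multi-mapping reads. Per the submitters' processing notes, TopHat and build dm3 (BDGP5) were used, without a version for TopHat. Paired 75-bp reads came from libraries that the labels call both polyA RNA and depleted of ribosomal RNA. Symbols were paired with 15924 of 16641 gene IDs. A row with no gene ID was left out (0.369% to 0.633% of each library).

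The test was that of edgeR 4.0.16 under R 4.3.3 (minimum of 10 counts in filterByExpr, TMM factors, quasi-likelihood F test, group as the only term), adjusted by Benjamini-Hochberg over 10201 genes at a threshold of 0.05. SEs come from the log2 fold change and its F value. A gene with 0 counts in w1118 is given by a bound, with 3 counts set in place of 0 over w1118, and one with 1 to 3 counts as a ratio of summed counts with its exact 95% interval. These and the Poisson intervals cover counting error only. No pair of libraries agreed within sampling noise (lowest chi-square per degree of freedom 25.2). The members and lists were chosen with earlier results of these data known. Named list genes were Rel, PGRP-LC, PGRP-LB, pirk, up to 6 other IMD genes with the smallest p, and in each marker list the most abundant member with up to 3 past the threshold. The IMD kinases and adaptors, CG4744 and the flanking genes were named in addition. DESeq2 1.42.0, limma 3.58.1 voom, other scalings, filters and left-out libraries were the alternatives. In 5 draws of simulated counts over 10201 genes with 200 changed, edgeR recovered 42.4% of genes changed 1.5-fold, 83.2% of those changed 2-fold and 99.6% of those changed 16-fold. The changed genes were drawn at random from all tested genes. These rates therefore need not hold for the peptide genes, with their few w1118 counts and wide spread among mutant libraries.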

Additional observations from a re-analysis of the deposited data

How the results depend on the processing

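Rises among the 10 peptide genes numbered 6 with edgeR and 4 to 9 over 17 alternatives, lowest under robust dispersion and highest under DESeq2, no filter and omission of the third Adar5G1 library. Dro, DptA, DptB and AttC were called in every alternative run. The number of members highest in Adar5G1 replicate 1 was 7 under each of the 4 scalings. Over all genes, 582 were higher and 209 lower with total counts only. The replicate block, although same-numbered libraries did not deviate together (correlations 0.091, -0.17 and -0.27), gave 484 and 278 and called 8 peptide genes, while PGRP-LB, PGRP-SD, apolpp and ninaC lost their calls under it (adjusted p = 0.0884, 0.0707, 0.0999 and 0.0946). Leaving out 1 library gave 545 to 1024 higher and 331 to 515 lower, and 6 to 9 peptide genes higher. It gave 4 to 7 IMD genes higher and 0 to 1 lower, 3 to 7 fat body genes higher and 0 lower, 0 hemocyte genes higher and 0 to 3 lower, and 3 midgut genes higher and 1 lower. With upper-quartile factors 3 IMD genes fell. Hemocyte falls numbered 2 with DESeq2, upper-quartile factors, total counts only and no filter, and 0 with the stricter filter and limma-voom. The log2 fold change of Col4a1, near 0, changed sign with total counts only (0.011) and ran from -0.19 to 0.16 when 1 library was left out (0.16 with Adar5G1 replicate 3 omitted, 0.034 and 0.091 with the first or the third w1118 library omitted). CecA2 gave no value with the stricter filter or with non-coding rows removed. The causes were not tested. Low wild-type counts limit the folds in the family. Of all alternatives, omission of Adar5G1 replicate 1 moved the log2 fold changes of AttA and AttB most, from 6.22 to 4.63 and from 5.43 to 3.82.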
